A study of Arabidopsis thaliana with 15 samples.

Results

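Calcium signalling genes were followed in whole Arabidopsis thaliana seedlings with a weakened brassinosteroid receptor. The members are probe sets that list 1 gene whose symbol is CML, CPK, CIPK, CBL, IQD, CAM, CNGC or ACA followed by a number. CML38 and CML42 were left out by name, and a member had to exceed 4 on the log2 scale on at least 3 of 15 arrays. These conditions gave 17 members, each a different gene, of 8534 genes listed alone for a probe set that passed the same filter. In all, 15912 of the 22810 probe sets on the array passed it and were tested. The array's gene table named probe sets of only 2 of the 8 families, so the members are 3 calmodulin-like (CML) genes and 14 IQ67-domain (IQD) genes, and no kinase, channel or pump is among them. The label of calcium signalling families therefore covers calcium sensors and calmodulin-binding proteins here. Members of the other 6 families were not analysed here.

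Calcium signals in plant cells are read by EF-hand proteins. Calmodulin and its relatives, the CML proteins, change shape when they bind calcium and then bind target proteins. IQD proteins are plant-specific targets of this kind. They bind calmodulin through the IQ67 domain, and many of them lie along microtubules, at the plasma membrane or in the nucleus and bear on cell shape. Brassinosteroid, the ligand of BRI1, is the steroid hormone that promotes cell expansion in growing seedlings.

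There were 5 genotypes with 3 arrays each, all in the WS2 ecotype. Of these, 3 carried the receptor mutation bri1-5 together with a dominant suppressor: bri1-5/bak1-1D, bri1-5/brs1-1D and bri1-5/bri1-1D, called bak1-1D, brs1-1D and bri1-1D here. The fourth was bri1-5 alone, a weak allele of BRI1, and the fifth was WS2, the wild type. BAK1 is the co-receptor kinase of BRI1 and BRS1 is a secreted carboxypeptidase. Seedlings had spent 5 days in the light on solid MS medium that held 1% sucrose, and RNA came from whole seedlings. The submitters' design text calls the 3 arrays of a genotype biological replicates. How many plants or independent lines went into each is not given in the sources used here. Levels of BRI1, BAK1 and BRS1 were not analysed here, so no targeted gene checks the labels.

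Values are log2 expression as deposited, so a difference of 1 is a doubling, and levels of different probe sets cannot be set against each other. Array medians over the tested probe sets ran from 6.75 to 6.82, and no 2 arrays were identical. Correlations between arrays across probe sets, which are not independent replicates, were 0.990 to 0.995 within genotypes and 0.976 to 0.993 between them. Of the tissue markers, 1 of 17 shoot genes (LHCB4.2) and 3 of 13 root genes (PYK10, EXPA7, EXPA18) had a named probe set, and these 4 exceeded 4 on all 15 arrays. None of 7 seed storage genes had one. In whole seedlings, fewer cells of a type and less RNA per cell cannot be told apart.

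Calls among the 14 IQD genes went both ways over the 10 comparisons between genotypes, some higher and some lower. IQD19 fell by 0.70 ± 0.10 on the log2 scale in bri1-5 against WS2 (SE, n = 3 against 3). It rose by 0.54 ± 0.10 in bak1-1D against bri1-5, each SE coming from the fit of all arrays. IQD24 did the reverse, with 0.73 ± 0.14 and -0.59 ± 0.14. The CML genes CML41 and CML30 were each called in 1 suppressor line against WS2, and IQD18 and IQD21 in comparisons of the suppressors. IQD18 was also called in brs1-1D against WS2, and IQD21 in bak1-1D against bri1-5. The calls of IQD16, IQD22, IQD31 and IQD33 were in suppressor lines against WS2. By limma's moderated F test over the 5 genotypes, with Benjamini-Hochberg adjustment over all tested probe sets and a threshold of 0.05, 5 of 17 members differed: IQD19, IQD21, IQD24, IQD18 and IQD16. This is 29.4% of the members, beside 27.1% of all tested probe sets, so the share of members that differed is near that of the array as a whole. IQD16 was the nearest of these to the threshold (limma F test, adjusted p = 0.0462, beside 4.28e-04 for IQD19). With median centring, or without the filter on low values, 4 members passed. The median member spanned 0.35 between its highest and lowest genotype mean, beside 0.28 for all tested probe sets, and the members' ranges ran from 0.16 (CML43) to 0.92 (CML41). The SD between arrays of a genotype had a median of 0.13 over members and 0.13 over tested probe sets.

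Of the members, 15 exceeded 4 on all 15 arrays. IQD16 did so on 12 arrays and IQD15 on 9, and these were the nearest to the filter from inside, with values of 3.81 to 4.48 and 3.80 to 4.59. Outside the filter were CML37, above 4 on 1 array (2.77 to 4.52), and CML23 and IQD27, above 4 on 0 arrays with lowest values of 3.14 and 2.78. These 3 are not described further. The gene table spells 4 members in lower case (iqd15, iqd21, iqd32 and iqd33), and they were counted as IQD genes.

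**Figure D1:**
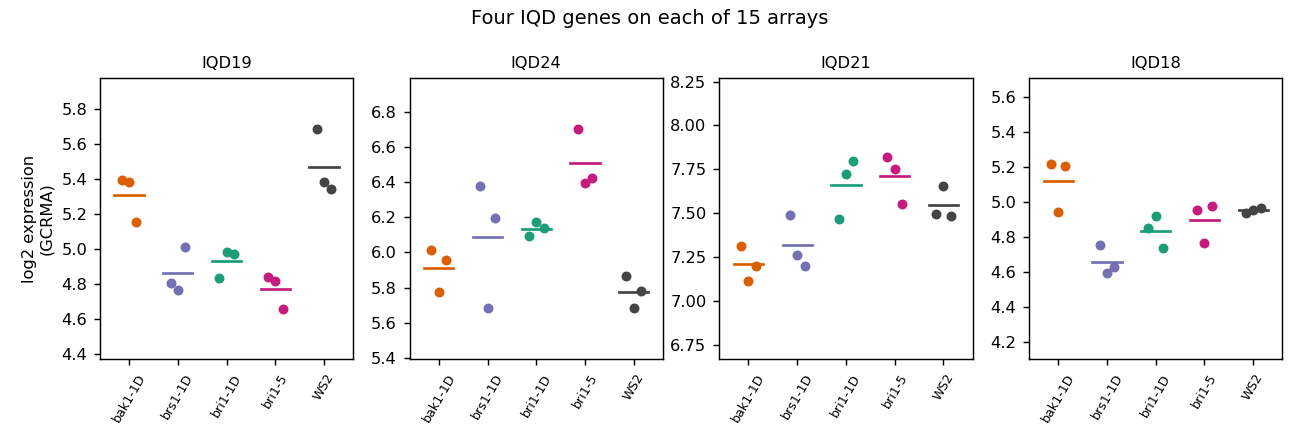
Log2 expression (vertical axis, as deposited) of IQD19, IQD24, IQD21 and IQD18 in the 5 genotypes (horizontal axis). Points are single arrays, 3 per genotype, lines are their means, and each panel spans the same 1.6 log2 units. IQD19 is high in bak1-1D and WS2 and low in the other genotypes, and IQD24 is highest in bri1-5.

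Among the calcium sensors, none of the 3 CML genes among the members was called in any comparison with bri1-5, in the fit of all arrays without the replicate block. The CML genes that the rule leaves out by name were called in 2 of these comparisons. CML38 fell by 2.02 ± 0.22 and CML42 by 0.93 ± 0.15 in bri1-5 against WS2 (limma adjusted p = 2.56e-05 and 5.46e-04), and they rose by 1.42 ± 0.22 and 0.77 ± 0.15 in bak1-1D against bri1-5 (0.00177 and 0.00638). CML41, whose product sits at plasmodesmata and promotes callose deposition in immune responses, varied most. It measured 5.87, 4.89 and 5.99 in bak1-1D, 4.79, 5.01 and 5.45 in brs1-1D, 5.43, 5.69 and 6.06 in bri1-1D, 5.32, 5.69 and 5.56 in bri1-5, and 6.28, 5.71 and 6.02 in WS2. The 3 brs1-1D arrays lay below the 3 WS2 arrays, and the bak1-1D arrays spread over more than the distance between those groups. Against WS2, CML41 fell by 0.92 ± 0.25 in brs1-1D (SE, n = 3 against 3, limma adjusted p = 0.0154). That call was lost without WS2 replicate 1 (adjusted p = 0.0668) or brs1-1D replicate 1 (0.0695). In bri1-5 against WS2 the difference was -0.48 ± 0.25 (adjusted p = 0.2).

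CML30, whose product is found in mitochondria, averaged 5.74 ± 0.09 in bak1-1D, 5.70 ± 0.13 in brs1-1D, 5.62 ± 0.02 in bri1-1D, 5.65 ± 0.08 in bri1-5 and 5.95 ± 0.22 in WS2 (SD, n = 3 each). WS2 had the highest mean, and its arrays (5.71, 5.98 and 6.14) overlapped those of every other genotype but bri1-1D. CML30 fell by 0.33 ± 0.10 in bri1-1D against WS2 (limma adjusted p = 0.031). The call was lost without any 1 of the 3 bri1-1D arrays, WS2 replicate 2 or WS2 replicate 3 (adjusted p from 0.0622 to 0.15). In bri1-5 the difference from WS2 was -0.29 ± 0.10 (adjusted p = 0.0561, or 0.0409 with the replicate block, 0.0109 without WS2 replicate 1 and 0.0486 without brs1-1D replicate 2). CML43, a relative of CML42 with links to pathogen responses, had means from 4.39 in WS2 to 4.55 in brs1-1D and no call in the 10 comparisons between genotypes. Its 95% interval for bri1-5 against WS2 ran from -0.14 to 0.24.

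What the receptor mutation alone changed was asked in bri1-5 against WS2. IQD19 measured 4.84, 4.82 and 4.66 in bri1-5 against 5.69, 5.38 and 5.34 in WS2. Every bri1-5 array lay below every WS2 array. IQD19 fell by 0.70 ± 0.10, to 0.62 of the WS2 level (SE, n = 3 against 3, limma adjusted p = 3.63e-04). IQD24 measured 6.70, 6.40 and 6.43 in bri1-5 against 5.87, 5.68 and 5.78 in WS2, again without overlap. IQD24 rose by 0.73 ± 0.14, or 1.66-fold (adjusted p = 0.00206). Both calls held when any 1 of the 15 arrays was left out (adjusted p at most 0.0119).

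These were the 2 members called, 1 higher and 1 lower, or 11.8% of 17 beside 17.6% of all tested probe sets. The arrays of bri1-5 and WS2 did not overlap for 4 members, beside 36.2% of tested probe sets. The median difference was 0.05 over members and 0.02 over tested probe sets, and the median size of a difference, signs aside, was 0.17 and 0.14. Same-number arrays of bri1-5 and WS2 deviated together (correlations of 0.104 to 0.346), and with the replicate number as a block 4 members were called, the added ones being CML30 (-0.29, adjusted p = 0.0409) and IQD33 (0.29, adjusted p = 0.0401). The block also raised the calls over all tested probe sets, from 2799 to 3323. Without the block CML30 had an adjusted p of 0.0561, and the other 14 members not called had 0.155 to 0.967.

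**Figure D2:**
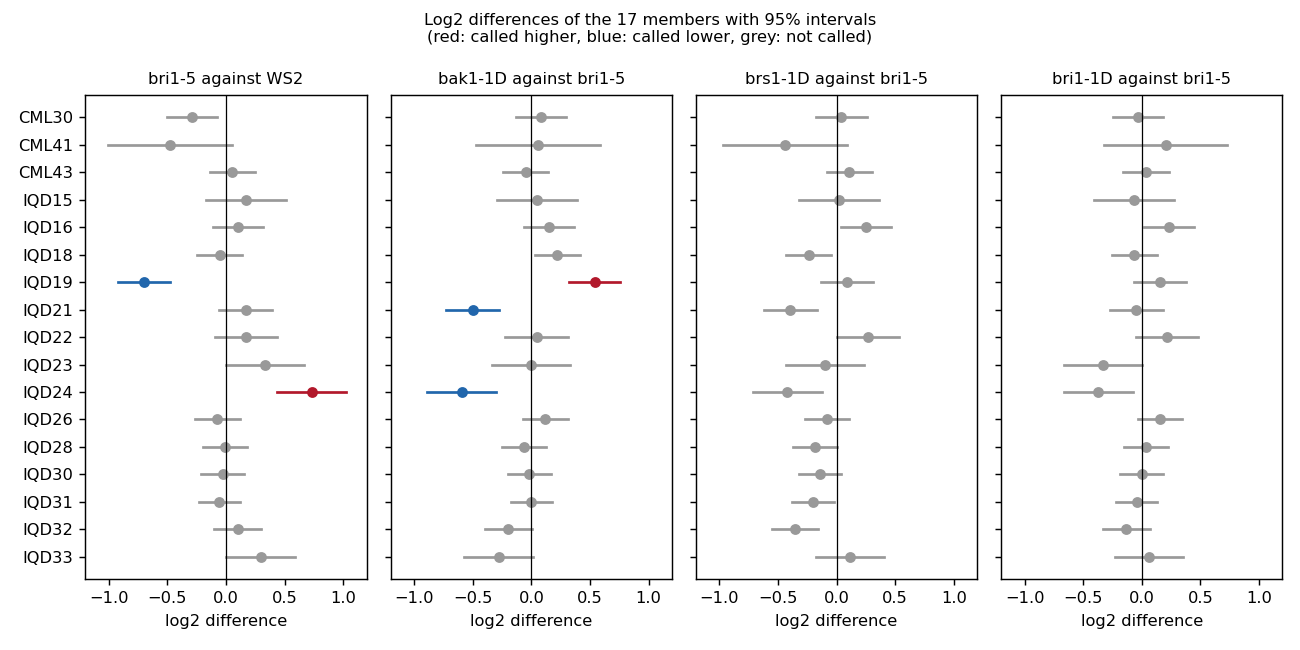
Log2 differences (horizontal axis) of the 17 members (rows) in 4 comparisons, with 95% intervals from the limma fit, n = 3 arrays against 3. Red marks calls of higher and blue of lower expression at an adjusted p under 0.05, and grey marks no call. IQD19 and IQD24 are called in opposite directions in bri1-5 against WS2 and again, with the signs turned, in bak1-1D against bri1-5.

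What each suppressor changed in the mutant was asked against bri1-5. IQD19 measured 5.39, 5.38 and 5.16 in bak1-1D against 4.84, 4.82 and 4.66 in bri1-5. All 3 bak1-1D arrays were higher, and the gene rose by 0.54 ± 0.10, or 1.45-fold (limma adjusted p = 0.00726, at most 0.0421 with 1 array left out). IQD24 measured 6.01, 5.77 and 5.96 in bak1-1D against 6.70, 6.40 and 6.43 in bri1-5, with no overlap. It fell by 0.59 ± 0.14 in bak1-1D (adjusted p = 0.0216). That call was lost without bri1-5 replicate 1 (adjusted p = 0.0853), bak1-1D replicate 2 (0.101) or bak1-1D replicate 3 (0.0507).

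IQD21 was the third member called in bak1-1D. It measured 7.32, 7.12 and 7.20 in bak1-1D against 7.82, 7.75 and 7.55 in bri1-5, again without overlap. It fell by 0.50 ± 0.11, to 0.71 of the bri1-5 level (limma adjusted p = 0.0131). Without bri1-5 replicate 1, bri1-5 replicate 2 or bak1-1D replicate 2 it was not called (adjusted p = 0.0532, 0.0601 and 0.0693). Unlike IQD19 and IQD24, it was not called in bri1-5 against WS2 (0.17 ± 0.11, adjusted p = 0.308), where WS2 measured 7.49, 7.65 and 7.49.

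The 3 calls in bak1-1D, 1 higher and 2 lower, are 17.6% of the members, beside 4.34% of tested probe sets. Without bri1-5 replicate 1 or bak1-1D replicate 2 the count was 1. Calls over all tested probe sets fell too in these fits, from 690 to 553 and 321. Group arrays did not overlap for 5 members, beside 26.7% of tested probe sets. The median difference was 0.00 over members and -0.04 over tested probe sets. This comparison and that of bri1-5 with WS2 share the 3 bri1-5 arrays, so their opposite signs are not independent. Set directly against WS2, which leaves bri1-5 out, bak1-1D differed by -0.16 ± 0.10 for IQD19 (95% interval -0.38 to 0.06, limma adjusted p = 0.366) and by 0.14 ± 0.14 for IQD24 (-0.16 to 0.43, adjusted p = 0.587). For IQD21 it was -0.33 ± 0.11 (adjusted p = 0.0578), with the 3 bak1-1D arrays below the 3 WS2 arrays.

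Of the 3 root markers, EXPA7 differed over the genotypes (limma F test, adjusted p = 0.00926), while EXPA18 (0.07) and PYK10 (0.339) were not called. In bak1-1D against bri1-5, EXPA18 differed by 0.35 ± 0.14 and PYK10 by 0.02 ± 0.08. In bri1-5 against WS2 the differences were -0.36 ± 0.16 for EXPA7, -0.35 ± 0.14 for EXPA18 and -0.12 ± 0.08 for PYK10. Their limma adjusted p values were 0.121, 0.096 and 0.344, and of these genes only EXPA18 had no overlap of arrays there. The mean log2 value of PYK10, EXPA7 and EXPA18 ran from 7.56 to 7.86 over the bak1-1D arrays, 7.69 to 7.86 in brs1-1D, 7.24 to 7.49 in bri1-1D, 7.33 to 7.55 in bri1-5 and 7.58 to 7.81 in WS2. Limma called none of these 3 in bri1-5 against WS2 or in a suppressor against bri1-5. EXPA7, a root hair expansin, was closest, with differences from bri1-5 of 0.53 ± 0.16 in bak1-1D (adjusted p = 0.0688) and 0.63 ± 0.16 in brs1-1D (0.0517) and no overlap of arrays in either. Against bri1-1D, EXPA7 was higher by 0.57 ± 0.16 in bak1-1D (adjusted p = 0.029) and by 0.67 ± 0.16 in brs1-1D (0.0329). LHCB4.2, a light-harvesting antenna gene, ran from 11.03 to 11.18 in bak1-1D, 10.68 to 11.11 in brs1-1D, 10.41 to 10.82 in bri1-1D, 10.92 to 11.10 in bri1-5 and 10.95 to 11.27 in WS2. It was 0.52 ± 0.12 higher in bak1-1D than in bri1-1D (limma adjusted p = 0.0139) and fell by 0.53 ± 0.12 in bri1-1D against WS2 (0.00684). The part of tissue makeup in the IQD changes, those between bak1-1D and bri1-1D included, was not tested.

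In brs1-1D against bri1-5 no member was called by limma, beside 1.72% of tested probe sets, while 7 members had an unadjusted p under 0.05. The share of tested probe sets under that unadjusted level was not counted, in this or any later comparison. Whether such counts are unusual therefore cannot be said. The largest differences among them were those of IQD24 (-0.42 ± 0.14, adjusted p = 0.127), IQD21 (-0.39 ± 0.11, adjusted p = 0.0678) and IQD32 (-0.35 ± 0.09, adjusted p = 0.0645). For IQD21 the arrays measured 7.49, 7.26 and 7.20 in brs1-1D against 7.82, 7.75 and 7.55 in bri1-5, and for IQD32 7.65, 7.32 and 7.33 against 7.69, 7.87 and 7.81, without overlap for either gene. Without brs1-1D replicate 1 these 3 genes were called (adjusted p = 0.0477, 0.0451 and 0.0213), and without bri1-1D replicate 1 IQD21 was (0.0462). IQD19 stayed near the mutant, with 4.81, 4.77 and 5.01 in brs1-1D and a difference of 0.09 ± 0.10 from bri1-5 (95% interval -0.13 to 0.31). Arrays of the 2 lines did not overlap for 6 members, beside 20.1% of tested probe sets.

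In bri1-1D against bri1-5 no member was called by limma either, beside 0.245% of tested probe sets, and 3 members had an unadjusted p under 0.05. These were IQD24 (-0.37 ± 0.14, adjusted p = 0.363), IQD23 (-0.33 ± 0.16, adjusted p = 0.497) and IQD16 (0.23 ± 0.10, adjusted p = 0.46). IQD24 measured 6.09, 6.18 and 6.14 in bri1-1D, below each bri1-5 array. IQD19 measured 4.84, 4.98 and 4.97 in bri1-1D, with a difference of 0.16 ± 0.10 from bri1-5 (95% interval -0.06 to 0.38). Of the members, 4 had no overlap between the groups, beside 13.6% of tested probe sets.

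Read across all genotypes, IQD19 split the arrays into 6 high and 9 low. Its lowest value over bak1-1D and WS2 was 5.16 and its highest over the other genotypes was 5.01. No other member had this pattern, which 1.89% of tested probe sets showed. For IQD24 every bri1-5 array stood above the other 12, though by a margin of 6.40 over 6.38, a brs1-1D array, and 0.559% of tested probe sets did so. IQD24 was the 1 member with that pattern. Both patterns were chosen after these values were seen and are descriptions. In order of the means, IQD24 stood at 6.51 in bri1-5, 6.14 in bri1-1D, 6.09 in brs1-1D, 5.91 in bak1-1D and 5.78 in WS2, and no neighbours in that order differed by a called amount.

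The suppressor lines were then set against WS2, to show what still differed from the wild type. In bak1-1D limma called no member, beside 10.0% of tested probe sets, and 2 members (IQD21 and IQD16) had an unadjusted p under 0.05. In brs1-1D 7 members were called, 3 higher and 4 lower, or 41.2% beside 20.4% of tested probe sets. In bri1-1D 4 were called, 2 higher and 2 lower, or 23.5% beside 20.7%. Arrays did not overlap with those of WS2 for 4 members in bak1-1D, 7 in brs1-1D and 6 in bri1-1D, beside 31.9%, 35.4% and 35.7% of tested probe sets. IQD19 was lower than in WS2 in both lines, with differences of -0.61 ± 0.10 in brs1-1D (adjusted p = 7.32e-04) and -0.54 ± 0.10 in bri1-1D (adjusted p = 0.00206), and kept these calls with any 1 array left out. The falls of CML41 in brs1-1D and CML30 in bri1-1D are among the counts. Without bri1-1D replicate 1 or brs1-1D replicate 1, IQD21 was called in bak1-1D (adjusted p = 0.0391 and 0.0468), so that the count there was 1. IQD24 stood 0.36 ± 0.14 above WS2 in bri1-1D (limma adjusted p = 0.0774) and 0.31 ± 0.14 in brs1-1D (0.125). It was called in bri1-1D with the replicate block (0.0345) or without brs1-1D replicate 1 (0.0472) or 2 (0.0168). In brs1-1D it was called without brs1-1D replicate 2 (0.00529).

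IQD22 and IQD16 were called higher than in WS2 in brs1-1D and bri1-1D. IQD22 averaged 7.70 ± 0.08 in brs1-1D and 7.65 ± 0.29 in bri1-1D, against 7.27 ± 0.13 in WS2 (SD, n = 3 each), and rose by 0.44 ± 0.13 and 0.38 ± 0.13 (SE, limma adjusted p = 0.0215 and 0.0396). IQD16, whose product binds microtubules, averaged 4.31 ± 0.16 in brs1-1D and 4.29 ± 0.08 in bri1-1D, against 3.96 ± 0.14 in WS2, and rose by 0.35 ± 0.10 and 0.33 ± 0.10 (adjusted p = 0.0213 and 0.0294). IQD16 lies at the filter level, where 2 of 3 WS2 arrays were under 4. Arrays of brs1-1D and of bri1-1D each lay above those of WS2 for both genes. So did those of bak1-1D, with uncalled differences of 0.21 ± 0.13 for IQD22 and 0.25 ± 0.10 for IQD16 (limma adjusted p = 0.309 and 0.13). For neither gene was bak1-1D called against brs1-1D or bri1-1D. In bri1-5 the differences from WS2 were 0.17 ± 0.13 and 0.10 ± 0.10, with overlap.

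In brs1-1D IQD33 also rose, by 0.41 ± 0.14 (limma adjusted p = 0.0443), although its arrays overlapped those of WS2. IQD18 fell by 0.29 ± 0.09 (adjusted p = 0.0298) and IQD31 by 0.26 ± 0.08 (adjusted p = 0.0393), both without overlap. In bri1-1D IQD33 stood 0.36 ± 0.14 above WS2 without a call (adjusted p = 0.0778). It was called there with the replicate block (0.0152) or without bri1-1D replicate 2 (0.0449) or brs1-1D replicate 3 (0.0473). The calls of IQD16, IQD18, IQD22, IQD31 and IQD33 against WS2 were lost in 3 to 8 of the 15 fits that left out an array (adjusted p up to 0.2). With each array centred on its median, IQD33 in brs1-1D and IQD22 in bri1-1D were not called (adjusted p = 0.0587 and 0.0504), nor was IQD33 without the filter (0.0512). Fits of only the 6 arrays compared did not call IQD16 (0.0517), IQD31 (0.0867) or IQD33 (0.0711) in brs1-1D, nor IQD16 (0.0521), IQD22 (0.101) or CML30 (0.0799) in bri1-1D. Among single arrays left out, WS2 replicate 2 ended every call of IQD16, IQD18, IQD22, IQD31 and IQD33 against WS2. The others were WS2 replicate 3 for all but IQD22 in brs1-1D, in brs1-1D its own replicate 2 for all but IQD33, and WS2 replicate 1 for IQD18, IQD31 and, in bri1-1D, IQD22. Calls also ended without brs1-1D replicate 1 (IQD22, IQD33), brs1-1D replicate 3 (IQD18, IQD31, IQD33), bri1-5 replicate 3 (IQD31, IQD33 and, in bri1-1D, IQD22), any bak1-1D array (IQD33), bri1-1D replicate 1 (IQD16, IQD22), bri1-1D replicate 2 (IQD22) or bri1-1D replicate 3 (IQD16). Among these genes the size moved most for IQD22 in bri1-1D, to 0.23 without bri1-1D replicate 1, and for IQD33 in brs1-1D, to 0.26 without brs1-1D replicate 3. Without WS2 replicate 2, the members called were 2 in brs1-1D and 1 in bri1-1D. Calls over all tested probe sets fell too in that fit, from 3241 to 2309 in brs1-1D and from 3300 to 2336 in bri1-1D. Without WS2 replicate 3 they fell to 2579 and 2246. The brs1-1D count was also 3 without WS2 replicate 3 and 4 without brs1-1D replicate 2 or 3, and the bri1-1D count was 1 without WS2 replicate 3 or bri1-1D replicate 1 and 2 without bri1-1D replicate 3.

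**Figure D3:**
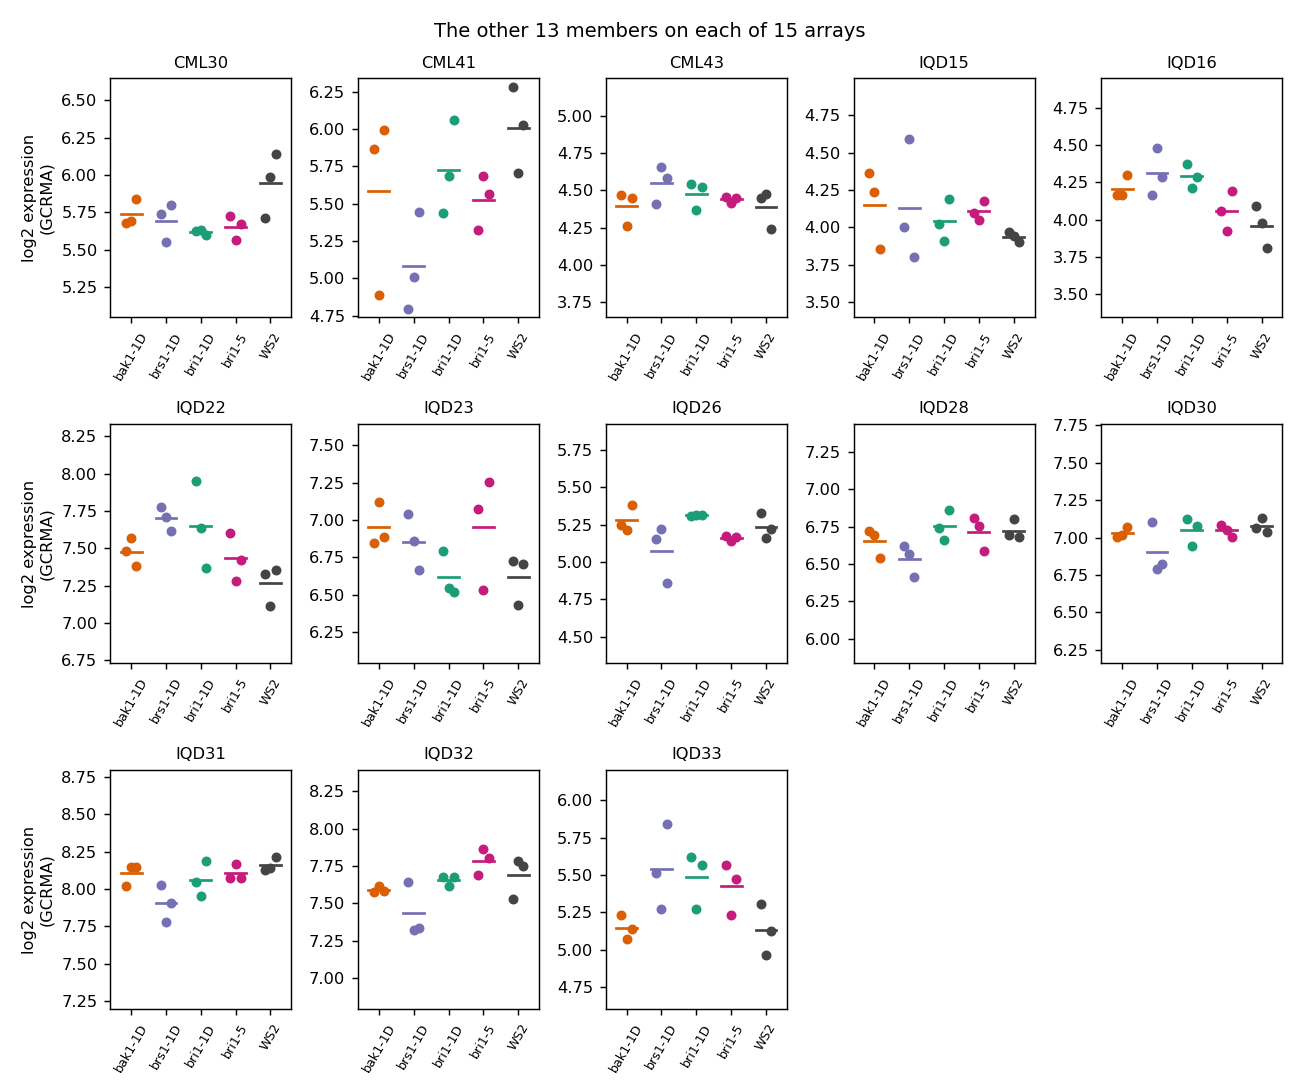
Log2 expression (vertical axis, as deposited) of the other 13 members in the 5 genotypes (horizontal axis), with single arrays as points, 3 per genotype, and their means as lines. Every panel spans 1.6 log2 units. CML41 and IQD15 show the widest spread within a genotype. IQD16 and IQD22 are higher in bak1-1D, brs1-1D and bri1-1D than in WS2, with calls in brs1-1D and bri1-1D.

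Whether the suppressors differ from each other was tested directly. IQD18, a relative of IQD16, measured 5.22, 4.94 and 5.21 in bak1-1D against 4.76, 4.60 and 4.63 in brs1-1D, without overlap. It was 0.46 ± 0.09 higher in bak1-1D (limma adjusted p = 0.00466, at most 0.0265 with 1 array left out), a difference that neither line had as a call against bri1-5. IQD19 was 0.45 ± 0.10 higher in bak1-1D than in brs1-1D (adjusted p = 0.0143) and 0.38 ± 0.10 higher than in bri1-1D (adjusted p = 0.0298). The first was lost without replicate 1 or 2 of either line (adjusted p from 0.0506 to 0.0648), and the second without any bri1-1D array, bak1-1D replicate 1 or bak1-1D replicate 2 (0.0512 to 0.109).

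IQD21 was lower in bak1-1D than in bri1-1D, with 7.32, 7.12 and 7.20 against 7.47, 7.72 and 7.80 and a difference of -0.45 ± 0.11 (limma adjusted p = 0.0135). It was not called without bri1-1D replicate 3 (adjusted p = 0.0605) or bak1-1D replicate 2 (0.0631). These make 2 calls of 17 in bak1-1D against brs1-1D (11.8%, beside 7.98% of tested probe sets) and 2 in bak1-1D against bri1-1D (11.8%, beside 10.1%). Arrays did not overlap for 4 members in bak1-1D against brs1-1D and 7 in bak1-1D against bri1-1D, beside 26.7% and 29.6% of tested probe sets. In brs1-1D against bri1-1D 2.17% of tested probe sets and no member passed limma's threshold, and 5 members had an unadjusted p under 0.05. Arrays did not overlap for 2 members, beside 18.1% of tested probe sets. Among the 5 was IQD21, 0.35 ± 0.11 lower in brs1-1D (adjusted p = 0.105). Without bri1-1D replicate 1 it was called (adjusted p = 0.0416). The count in bak1-1D against brs1-1D was 1 without replicate 1 of either line. In bak1-1D against bri1-1D it was 0 without bri1-1D replicate 3 and 1 without bri1-1D replicate 1 or 2 or bak1-1D replicate 1 or 2. In these fits of bak1-1D against bri1-1D, calls over all tested probe sets fell too, from 1611 to between 909 and 1258.

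Among the remaining IQD genes, IQD26, IQD28, IQD30 and IQD15 had ranges of 0.17 to 0.24 between their highest and lowest genotype means and no call in the 10 comparisons. IQD23 (range 0.33) and IQD32 (0.35) had no call either with all 15 arrays. Without bri1-5 replicate 2 IQD23 was called in bri1-5 against WS2, with a difference of 0.54 where the fit of all arrays gave 0.33 (limma adjusted p = 0.0143). Against WS2 in brs1-1D, IQD32 was called without WS2 replicate 1 (adjusted p = 0.0306) or brs1-1D replicate 1 (0.0113), and IQD30 without brs1-1D replicate 1 (0.0271). For IQD23 the bri1-5 arrays ran from 6.53 to 7.25, wider than the range of the genotype means. The lowest of the 5 means was in brs1-1D for 7 of the 17 members (CML41, IQD18, IQD26, IQD28, IQD30, IQD31 and IQD32), in WS2 for 6, in bri1-1D for 2, and in bri1-5 and bak1-1D for 1 each. These counts were not made over all tested probe sets, so whether 7 is unusual cannot be said. IQD26 averaged 5.08 in brs1-1D, 5.16 in bri1-5 and 5.24 in WS2. For IQD28 the brs1-1D mean was 6.53, against 6.72 in bri1-5 and 6.72 in WS2, and for IQD30 6.90 against 7.05 and 7.08. IQD31 averaged 7.90 in brs1-1D, 8.10 in bri1-5 and 8.16 in WS2. IQD32 averaged 7.43, 7.79 and 7.69 in these genotypes. Among these differences the one called was that of IQD31 between brs1-1D and WS2.

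**Figure D4:**
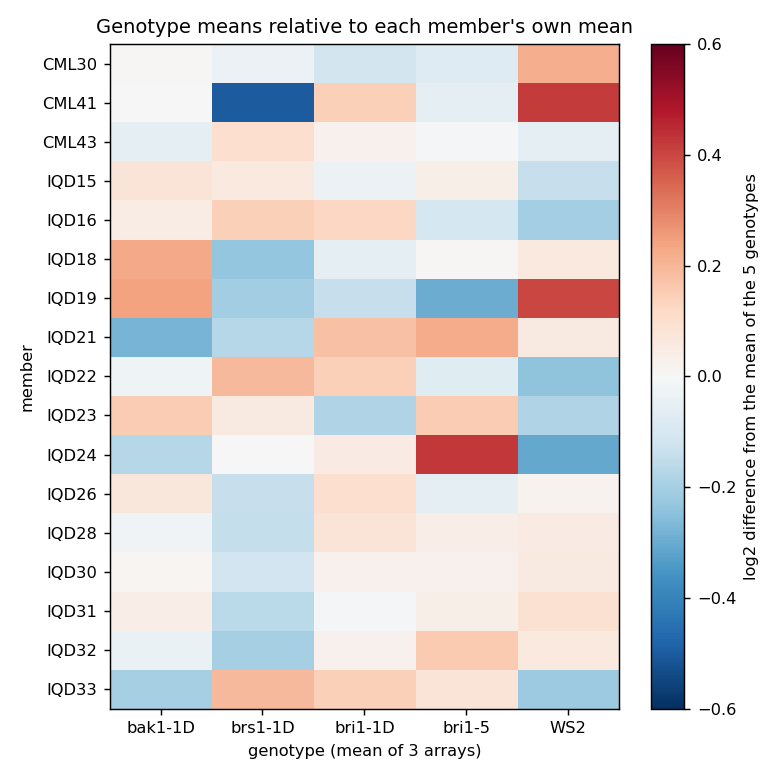
Genotype means of the 17 members (rows) in the 5 genotypes (columns), each as the log2 difference from that member's own mean over the genotypes, from -0.6 (blue) to 0.6 (red). IQD19 and IQD24 run in opposite directions in bri1-5 and WS2, and IQD16 and IQD22 have the same order of genotypes, with brs1-1D highest and WS2 lowest. Of the 17 members, 7 are lowest in brs1-1D and 6 in WS2.

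Of 141 further calcium-related symbols in a fixed list, 8 had a named probe set and 6 were tested. These were 5 glutamate receptor-like channel genes and CRT1b, which codes for a calreticulin of the endoplasmic reticulum. None of 21 exchangers and pumps or 35 calmodulin-binding regulators was among them. Of the 6, 2 were higher in bri1-5 than in WS2 and none lower, beside 17.6% of tested probe sets called. Limma called none in a suppressor against bri1-5, beside 4.34% of tested probe sets in bak1-1D, 1.72% in brs1-1D and 0.245% in bri1-1D, where 1 in bak1-1D, 0 in brs1-1D and 1 in bri1-1D had an unadjusted p under 0.05.

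GLR2.7, a clade 2 channel gene with a part in calcium signals of pattern-triggered immunity, was one of them. It measured 6.52, 6.17 and 6.34 in bak1-1D, 7.06, 6.87 and 6.89 in brs1-1D, 7.27, 6.80 and 6.65 in bri1-1D, 6.88, 6.66 and 6.98 in bri1-5, and 6.17, 5.59 and 5.88 in WS2. WS2 was lowest and bak1-1D second lowest. GLR2.7 rose by 0.96 ± 0.16 in bri1-5 against WS2 (limma adjusted p = 8.4e-04), by 1.06 ± 0.16 in brs1-1D (adjusted p = 2.41e-04) and by 1.03 ± 0.16 in bri1-1D (adjusted p = 3.89e-04), and each call held with any 1 array left out. In bak1-1D it was 0.47 ± 0.16 above WS2 (adjusted p = 0.0752) and -0.49 ± 0.16 from bri1-5 (adjusted p = 0.0969). It was lower in bak1-1D than in both other suppressor lines, with differences of -0.60 ± 0.16 from brs1-1D (adjusted p = 0.0294) and -0.56 ± 0.16 from bri1-1D (adjusted p = 0.0352). The first call was lost without bak1-1D replicate 2 or 3 or any brs1-1D array. The second was lost without bak1-1D replicate 2 or 3 or bri1-1D replicate 1 or 2, and with only the 6 arrays compared (adjusted p = 0.0687).

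GLR1.4 was the second, 0.35 ± 0.11 higher in bri1-5 than in WS2 (limma adjusted p = 0.042), a call lost in 7 of 15 fits without an array: WS2 replicates 1 and 2, bri1-5 replicates 2 and 3 and each bak1-1D array (adjusted p up to 0.145), with median centring (0.0776) and with only the 6 arrays compared (0.0625). It exceeded 4 on 4 of 15 arrays. CRT1b, GLR3.3, GLR3.5 and GLR3.6 differed from WS2 by -0.05 to 0.10 in bri1-5. GLR3.6 rose by 0.36 ± 0.09 in bri1-1D against WS2 (adjusted p = 0.0138), a call lost without WS2 replicate 1 or bri1-1D replicate 1 (adjusted p up to 0.057).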

How the data were processed

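The values are log2 expression per probe set on Affymetrix arrays, which the authors processed with GCRMA, per the submitters' processing notes. That method includes background correction, normalization across arrays and a summary over the probes of a set. Its settings are not given in any source used here. The deposited log2 values ran from 2.01 to 13.5. No counts stand behind them, so the number of arrays limits the precision. Genotype and replicate number came from the sample titles. In the fit of all arrays, a p-value or SE reflects only how the 3 arrays within each genotype vary, pooled over all genotypes. Limma also moderates that variance using all tested probe sets, so arrays outside a comparison bear on its p-value and SE.

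Gene names came from the platform's annotation, which lists 1 gene for 13513 probe sets, several for 503 and none for 8730, apart from 64 controls. Locus codes of all 17 members were found in the RefSeq genes provided, without using positions. A listed symbol, CP1, belonged to a cysteine proteinase gene on this array and was dropped.

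The expression of 15912 probe sets over the 15 arrays was modelled by genotype using lmFit and eBayes of limma 3.58.1 (R 4.3.3). The 10 differences between genotypes and an F test over them were adjusted by Benjamini-Hochberg over all tested probe sets and called at 0.05. The fit was tested on simulated data. Members, gene lists and comparisons were chosen with earlier results of these data known. By the rule for naming, values on each array went to members called in bri1-5 or in a suppressor against bri1-5 and to the CML gene with the largest F, and any member could be named. The array values of IQD18, CML30 and IQD32, and the differences of CML38, CML42 and GLR3.6, were chosen after they were seen, as were those of GLR2.7.

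Deviations of same-number arrays from their genotype means correlated above 0.1 for all 3 numbers in 3 of 10 genotype pairs, WS2, brs1-1D and bri1-1D each with bri1-5, and ran from -0.212 to 0.346 over all pairs. The labels do not say that a number marks a shared batch. A fit with the number as a block, median centring, no filter on low values, array weights, only the 6 arrays compared, capital symbols only (added after the data were seen) and leaving out each array were run as alternatives.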

Additional observations from a re-analysis of the deposited data

How the results depend on the processing

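None of the 20 calls of members turned its direction under any alternative, and 6 remained called under every one run: IQD19 in bri1-5, brs1-1D and bri1-1D against WS2, IQD24 in bri1-5 against WS2, IQD19 in bak1-1D against bri1-5 and IQD18 in bak1-1D against brs1-1D. With the replicate block 4 members were called in bri1-5 against WS2 and 4 in bak1-1D against bri1-1D, beside 2 and 2 without it. It also gave 6 in bri1-1D against WS2, 3 in bak1-1D against brs1-1D and 7 by the F test, beside 4, 2 and 5. Calls over all tested probe sets rose too, from 2799 to 3323 in bri1-5 against WS2 and from 1611 to 2016 in bak1-1D against bri1-1D. They rose from 3300 to 3770 in bri1-1D against WS2 and from 1270 to 1535 in bak1-1D against brs1-1D. By the F test they rose from 4310 to 5108. The block ended no call of a member. With array weights 4 were called in bri1-5 against WS2, 1 in brs1-1D against bri1-5 and 1 in bak1-1D against WS2. The weights also gave 8 in brs1-1D against WS2, 3 in bak1-1D against brs1-1D and 7 by the F test. With them 3783 tested probe sets were called in bri1-5 against WS2, beside 2799, and 457 in brs1-1D against bri1-5, beside 273. In bak1-1D the weights gave 2161 against WS2, beside 1595, and 1374 against brs1-1D, beside 1270. They gave 3137 in brs1-1D against WS2, beside 3241, and 4891 by the F test, beside 4310. In fits of only the 6 arrays compared the counts were 1 in bak1-1D, 4 in brs1-1D and 2 in bri1-1D against WS2, beside 0, 7 and 4. Over all tested probe sets these fits called 1565, 2827 and 2345, beside 1595, 3241 and 3300. By the F test 4 members were called with median centring and 4 without the filter, beside 4247 and 4191 probe sets called in all. With capital symbols only, which drops IQD21, 1 member was called in bak1-1D against bri1-1D. No member's probe set is of the _s_at or _x_at kind, so leaving those out changed nothing.

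With 1 array left out the counts ran from 2 to 3 in bri1-5 against WS2, 1 to 3 in bak1-1D, 0 to 3 in brs1-1D and 0 to 0 in bri1-1D against bri1-5. Against WS2 they ran from 0 to 1 in bak1-1D, 2 to 7 in brs1-1D and 1 to 5 in bri1-1D. In bak1-1D they ran from 1 to 2 against brs1-1D and 0 to 3 against bri1-1D, in brs1-1D from 0 to 1 against bri1-1D, and for the F test from 4 to 7. Calls over all tested probe sets moved in these fits as well. Without bri1-1D replicate 3, for example, they fell from 1611 to 1033 in bak1-1D against bri1-1D. The cause of these moves was not tested. IQD15, IQD16 and CML43 have means near the filter level of 4, where little signal stands over background.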

Other observations

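Some members carry the same deposited value, to every digit, on more than 1 array. CML43 and IQD16 do so on 3 arrays each, and CML41, IQD26, IQD31 and IQD32 on 2 each. For IQD31 both arrays are of bri1-5, and for the others they span genotypes. Over the array, 5287 of 15912 tested probe sets (33.2%) have at least 2 equal values. The share is 46.6% of probe sets with a mean under 5, 36.9% of those between 5 and 7, and 25.3% of those over 7.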
